A study of Mus musculus with 5 samples.

Results

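The guidance genes described here are the semaphorins, plexins, neuropilins, ephrins and Eph receptors of the mouse. They were taken from the GENCODE M1 annotation of mm9 as the protein-coding genes with a Sema, Plxn, Efna, Efnb, Epha or Ephb symbol, together with *Nrp1* and *Nrp2*, which gave 53 of 22238 protein-coding genes. A ChIP-seq peak was assigned to a guidance gene when its centre lay in the gene body or within 10 kb of it, or when the nearest transcription start of any protein-coding gene was that gene's. By this rule 153 of 21270 SOX11 peaks and 21 of 2669 SOX4 peaks belonged to the guidance genes.

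The lists come from primary mouse keratinocytes of a mixed 129SvEx:C57BL/6 background that carried Krt14-Cre with the floxed alleles Sox4 fl/fl and Sox11 fl/fl, in which Cre is driven by the keratin 14 promoter of basal keratinocytes and deletes both genes. The Krt14-Cre line is FVB/N, and the floxed mice first crossed to it also lacked *Sox12*. The genotype that the paper gives for these cells names no *Sox12* allele. A lentivirus returned *Sox11* or *Sox4* as a FLAG-tagged, doxycycline-inducible transgene, doxycycline was given for a day, and chromatin was precipitated with an antibody to FLAG. There were 2 libraries of SOX11-FLAG, 2 of SOX4-FLAG and 1 control of the same genotype, titled input but labelled with the antibody IgG, for which no list was used here. The tagged factors were thus measured in cells without the endogenous proteins and at induced levels. Both replicates of a factor went into 1 deposited list of chromosomes, starts and ends, with no height, score or p-value. Peaks are named here by their number in the list, counted from its first line, and the key of that order is not stated. The depth behind a peak is therefore unknown, no spread between replicates can be given, and no comparison below carries a test. Lists of peaks hold no expression values, so whether a guidance gene is transcribed in these cells, and the label of the cells, were not checked.

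Semaphorins are secreted or membrane-bound cues that steer growing axons and migrating cells. They are read by plexins, and most class 3 semaphorins need a neuropilin as co-receptor. Ephrins are ligands held at the cell surface that bind Eph receptors, a family of receptor tyrosine kinases, on a neighbouring cell, and signals can run into both cells. In the epidermis, Eph receptors and ephrins take part in keratinocyte adhesion and differentiation, and in the movement of cells at wound edges.

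The sequences printed here are the mm9 plus strand at sites of the guidance genes found with both factors, where peaks of the 2 lists overlap. For each of 4 roles they were taken from the 3 earliest in the SOX11 list. Capitals mark the SOX core, CTTTGT or CATTGT on either strand, so that ACAAAG and ACAATG are the same cores on the minus strand. The earliest peak of a role is printed whole, and the others as 81 bases around the middle of the core nearest the centre. Where the cores lie in an untranslated exon, 30 bases are printed. A match shows that these letters are present and does not make them a binding site.

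For semaphorins, the peak of *Sema3c* at chr5:17061915-17062172 lies upstream of the gene. The stretch of *Sema4b* at chr7:87352920-87353000 lies in intron 2. Each holds 1 core.
Sema3c: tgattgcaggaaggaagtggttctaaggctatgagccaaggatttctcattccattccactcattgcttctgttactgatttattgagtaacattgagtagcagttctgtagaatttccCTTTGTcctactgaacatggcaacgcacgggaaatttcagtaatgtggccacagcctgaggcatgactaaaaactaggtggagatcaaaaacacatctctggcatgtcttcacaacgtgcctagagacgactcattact
Sema4b: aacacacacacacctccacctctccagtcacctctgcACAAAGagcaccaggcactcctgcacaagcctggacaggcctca

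For plexins and neuropilins, the site of *Plxnb1* at chr9:108997946-108997975 spans the annotated start of the gene and holds 2 cores in the same orientation. The stretch of *Nrp2* at chr1:62814313-62814393 is in intron 10 and holds 1. That of *Plxna1* at chr6:89311447-89311527, in intron 1, is centred on the peak and holds none.
Plxnb1: cggCTTTGTctcCTTTGTtcccagcggagg
Nrp2: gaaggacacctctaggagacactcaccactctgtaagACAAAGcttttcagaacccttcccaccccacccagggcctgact
Plxna1: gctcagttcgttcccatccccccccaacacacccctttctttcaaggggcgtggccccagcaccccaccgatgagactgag

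For ephrins, the peak of *Efna4* at chr3:89141518-89141775 has its centre in intron 1. The stretch given for *Efna1* at chr3:89075082-89075162 lies past the 3′ end of that gene, in a peak at the promoter of *Slc50a1*. Each holds 1 core.
Efna4: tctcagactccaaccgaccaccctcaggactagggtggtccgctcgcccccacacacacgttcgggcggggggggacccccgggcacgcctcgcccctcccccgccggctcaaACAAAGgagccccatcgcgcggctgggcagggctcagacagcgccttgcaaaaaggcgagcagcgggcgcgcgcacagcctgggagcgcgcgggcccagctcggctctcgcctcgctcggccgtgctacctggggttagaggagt
Efna1: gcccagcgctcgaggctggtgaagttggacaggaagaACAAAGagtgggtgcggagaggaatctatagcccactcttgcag

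For Eph receptors, the site of *Ephb3* at chr16:21212627-21212656 is in an exon of a shorter transcript. For *Epha4*, the stretch at chr1:76642618-76642698 lies downstream of the gene and holds 2 cores in opposite orientations, and the stretch at chr1:77467709-77467789 is in intron 3 and holds 1.
Ephb3: aagcccacagccCTTTGTtccaggataaag
Epha4, downstream: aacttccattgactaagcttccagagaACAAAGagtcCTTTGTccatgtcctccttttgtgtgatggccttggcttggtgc
Epha4, intron: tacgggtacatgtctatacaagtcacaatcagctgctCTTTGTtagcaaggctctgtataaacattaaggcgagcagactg

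Most guidance genes had a SOX11 peak, and fewer had a SOX4 peak. A SOX11 peak was assigned to 39 of 53 guidance genes, or 73.6%, beside 57.0% of all protein-coding genes. A SOX4 peak was assigned to 14, or 26.4%, beside 13.0%. The same 14 genes had a SOX11 peak that overlapped a SOX4 peak, beside 12.3% of all genes. Promoters were taken as the 1 kb before a transcription start and the 100 bp after it, and 10 guidance genes had a SOX11 peak in their own promoter, or 18.9%, beside 23.2% of all genes. The median number of SOX11 peaks was 2 for a guidance gene and 1 for all genes.

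Guidance genes are long, with a median length of 36.9 kb against 15.5 kb, and a longer gene holds more bases in which a peak can fall. Under 20 kb, 13 of 17 guidance genes had a SOX11 peak, or 76.5%, beside 46.9% of all genes of that length. From 20 to 100 kb the count was 13 of 15, or 86.7%, beside 68.9%. At 100 kb or more it was 13 of 21, or 61.9%, which lay below the 74.0% of all genes of that length. The share was thus above that of all genes in the short and middle classes and below it in the long class. SOX4 peaks were assigned to 3 of 17, 6 of 15 and 5 of 21 guidance genes in these classes, beside 9.27, 16.2 and 22.8% of all genes. Counted per 100 kb of gene body and 10 kb around it, the guidance genes held 1.06 SOX11 peaks and 0.149 SOX4 peaks, against 1.37 and 0.172 over all protein-coding genes. For SOX4 the order depended on the stretch, with 0.143 against 0.140 in gene bodies alone and 0.252 against 0.183 with 50 kb around the genes.

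No peak of either list was assigned to 14 guidance genes. They are the semaphorins *Sema3g*, *Sema4a*, *Sema5b*, *Sema6b* and *Sema6d*, the plexins *Plxna3*, *Plxna4*, *Plxnb3* and *Plxnc1*, and the receptors *Epha3*, *Epha5*, *Epha6*, *Epha10* and *Ephb1*. Of these, 8 are 100 kb or longer, up to *Epha6* with 952 kb, *Sema6d* with 578 kb and *Plxna4* with 444 kb. A SOX11 peak was assigned to all 8 ephrins and to 75.0% of the 20 semaphorins, beside 57.0% of all genes. For the 11 plexins and neuropilins the share was 63.6% and for the 14 Eph receptors 64.3%. Median lengths are 9.97 kb for ephrins, 34.3 kb for semaphorins, 46.3 kb for plexins and neuropilins and 92.4 kb for Eph receptors. Each role holds genes of all the length classes above, so these shares are not matched for length.

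**Figure D1:**
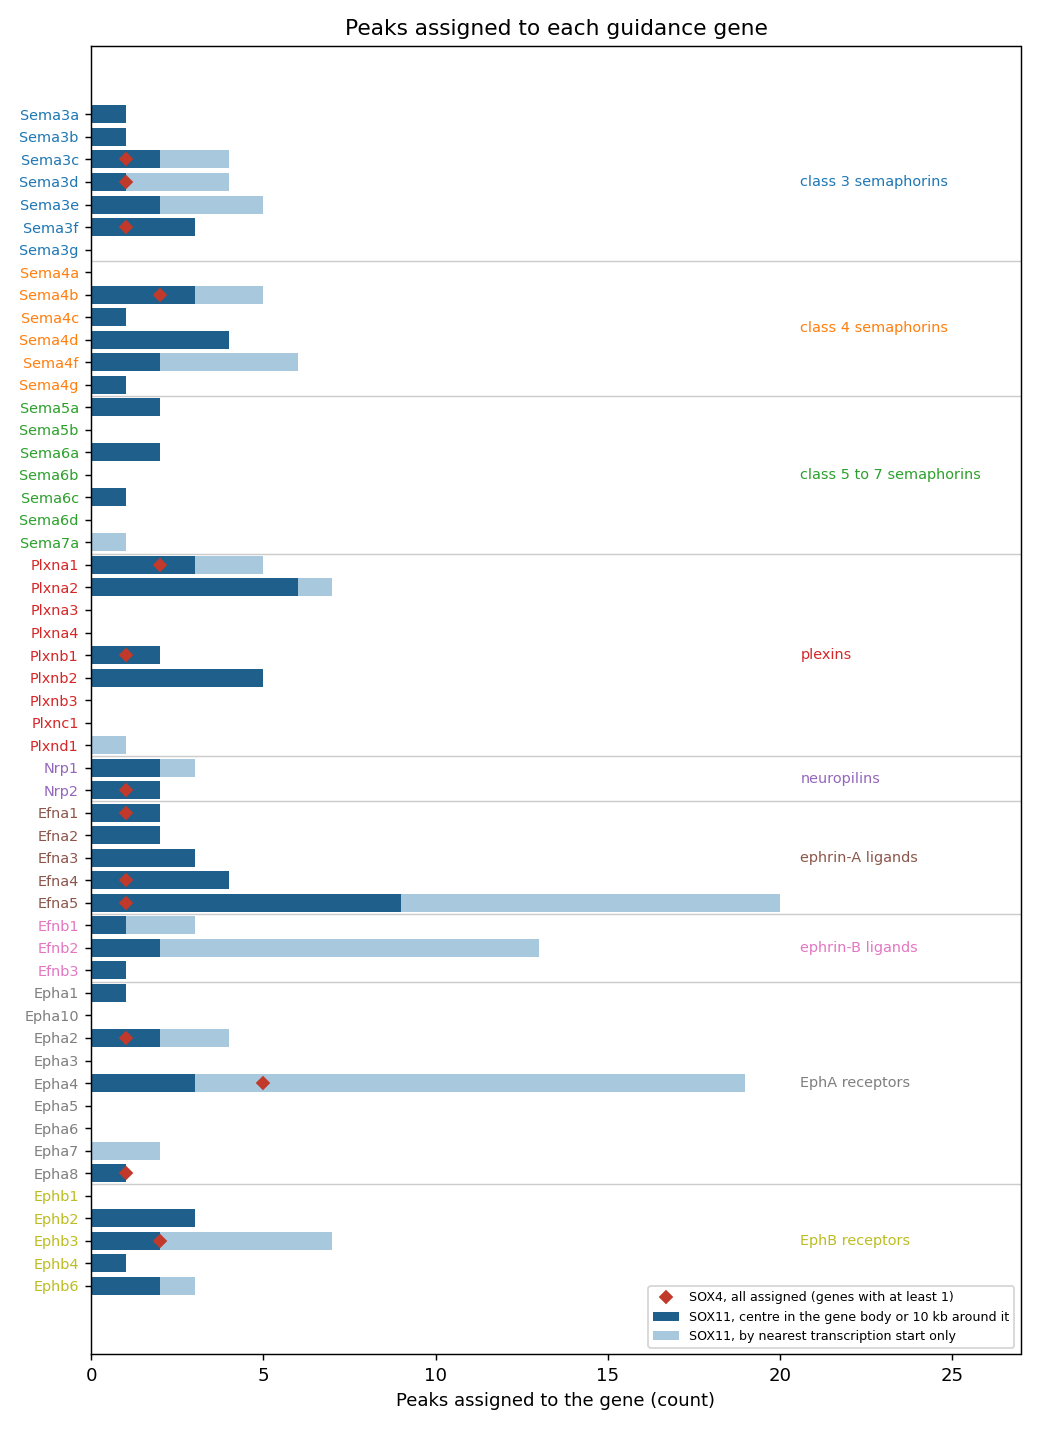
Number of peaks assigned to each of the 53 guidance genes, grouped and coloured by family. Bars count SOX11 peaks, dark where the centre is in the gene body or 10 kb around it and pale where only the nearest transcription start ties the peak to the gene, and red diamonds count SOX4 peaks. *Efna5*, *Epha4* and *Efnb2* stand out with 20, 19 and 13 SOX11 peaks, of which 11, 16 and 11 are pale.

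Among the ligands, the class 3 semaphorins, which are secreted, had SOX11 peaks at 6 of 7 genes and SOX4 peaks at 3, beside 57.0 and 13.0% of all genes. Their median length is 156 kb, with *Sema3b*, *Sema3f* and *Sema3g* shorter than 100 kb. Those of 100 kb or more, *Sema3a*, *Sema3c*, *Sema3d* and *Sema3e*, all had a SOX11 peak, and *Sema3c* and *Sema3d* a SOX4 peak. Of all genes of that length, 74.0% had a SOX11 peak and 22.8% a SOX4 peak. *Sema3c* had 4 SOX11 peaks. The one 18.1 kb upstream of the gene is number 46 of the SOX11 list and overlaps number 39 of the SOX4 list, so this site stands near the top of both. Another, number 4652 at chr5:17080309-17080566, lies in the promoter of *Sema3c*, in untranslated exon 1, and has no SOX4 peak. *Sema3d* also had 4 SOX11 peaks, of which number 1170, 196 kb upstream, overlaps SOX4 peak number 793. *Sema3f* had 3, all within 10 kb of its start, and number 229 in intron 1, 2.65 kb from the start, overlaps SOX4 peak number 487. *Sema3e* had 5 SOX11 peaks without SOX4, *Sema3a* and *Sema3b* 1 each. In the order of the SOX11 list, the earliest of *Sema3e* is number 1907, 32.2 kb upstream, and that of *Sema3b* number 2143, 3.51 kb upstream.

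The class 4 semaphorins, which span the membrane, have a median length of 26.6 kb, against 15.5 kb for all genes. SOX11 peaks were assigned to 5 of 6, beside 57.0% of all genes, and *Sema4b* was the member with SOX4 peaks. Of its 5 SOX11 peaks, number 178 in intron 2 overlaps SOX4 peak number 159, and number 1125, 26.4 kb upstream, overlaps SOX4 peak number 562. *Sema4f* had 6 SOX11 peaks and no SOX4 peak. Of these, 4 lie more than 10 kb past the 3′ end of the gene, and the earliest is number 6003 of the list. *Sema4d*, the ligand of plexin-B1, had 4 SOX11 peaks, none earlier than number 16829. *Sema4c* had 1, number 825, in intron 1 and 812 bp from a start, and it is the earliest SOX11 peak of a guidance gene that has no SOX4 partner. The peak of *Sema4g*, number 7088, lies in the shared promoter of *Mrpl43* and *Peo1* downstream of the gene.

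Of the 7 semaphorins of classes 5 to 7, 4 had a SOX11 peak, or 57.1%, which is near the 57.0% of all genes, and none had a SOX4 peak, beside 13.0%. Their median length is 124 kb, with *Sema6b*, *Sema6c* and *Sema7a* shorter than 100 kb. Of those of 100 kb or more, *Sema5a* and *Sema6a* had a SOX11 peak, and *Sema5b* and *Sema6d* did not. Of all genes of that length, 74.0% had a SOX11 peak and 22.8% a SOX4 peak. *Sema6a* had 2 SOX11 peaks in its own promoter, numbers 12454 and 12092, 155 and 961 bp upstream of the start on chromosome 18. *Sema6c* had 1, number 13692, centred 30 bp upstream of its start. *Sema5a* had 2 in introns, numbers 2756 and 11690. The peak of *Sema7a*, a semaphorin with a lipid anchor, is number 11487, 33.8 kb downstream of its start.

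Among the plexins, 5 of 9 had a SOX11 peak, or 55.6%, near the 57.0% of all genes, and *Plxnb1* and *Plxna1* had SOX4 peaks too. *Plxnb1* holds the earliest SOX11 peak of any guidance gene, number 34 at chr9:108997831-108998088, which is centred 10 bp downstream of its start and overlaps SOX4 peak number 95. It is also the only site at which a guidance gene had a SOX4 peak in its own promoter. The 2 SOX cores of the printed site are the ones this peak holds. The other SOX11 peak of *Plxnb1* is number 13152, in untranslated exon 38 at the far end of the gene. *Plxnb2* had 5 SOX11 peaks and no SOX4 peak. Number 2079 is centred 8 bp upstream of its 5′ end, number 1710 lies in intron 1, and number 13433 stands at an internal start in intron 18. The other 2 are nearest to the starts of *Mapk11* and *Fam116b*.

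*Plxna1*, a receptor for class 3 semaphorins together with neuropilins, had 5 SOX11 peaks. Number 3742 in intron 1, 1.12 kb from the start, overlaps SOX4 peak number 1253, and number 7814 in intron 3 overlaps SOX4 peak number 1295. *Plxna2* had 7 SOX11 peaks and no SOX4 peak. Of these, 6 lie in intron 3 of the longest transcript, between 30.4 and 68.4 kb from the 5′ end, and none comes before number 10059 of the list. *Plxnd1* had 1 SOX11 peak, number 3345, 14.6 kb upstream. Both neuropilins had SOX11 peaks. *Nrp2* had 2, and number 1164 in intron 10, 64.5 kb from the 5′ end, overlaps SOX4 peak number 1622 and holds 2 SOX cores and 2 AP-1 cores. *Nrp1* had 3 without SOX4, the earliest number 4790.

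The ephrin-A ligands, which a lipid anchor holds at the membrane, had SOX11 peaks at all 5 genes and SOX4 peaks at 3, beside the same 57.0 and 13.0%. *Efna1*, *Efna3* and *Efna4* lie next to each other on chromosome 3. In *Efna4*, SOX11 peak number 770 in intron 1, 303 bp from the start, overlaps SOX4 peak number 403. A further peak of *Efna4*, number 1714, holds 4 SOX cores and lies 1.22 kb upstream, where the nearest start is that of *Adam15*. Numbers 6357 and 6991 lie between *Efna3* and *Efna4* and are counted for both, and these are the 2 SOX11 peaks that were assigned to 2 guidance genes. For *Efna1*, number 4385 lies 1.11 kb upstream, and number 1400, which overlaps SOX4 peak number 1421, lies in the promoter of *Slc50a1*. *Efna2* had 2 SOX11 peaks, of which number 16980 is centred 69 bp upstream of its start.

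*Efna5* had 20 SOX11 peaks, a number reached by 5 of all protein-coding genes. Its promoter held number 3963, 370 bp upstream of the 5′ end. A further peak, number 14815 in coding exon 5, is counted in a promoter because a second, short annotation entry with the same symbol starts 719 bp away. Within the gene, 6 peaks lie in intron 1, the earliest number 3564, and 1 lies in intron 2. The other 11 peaks are outside the gene and its 10 kb, downstream, at 371 to 2096 kb from the 5′ end. The farthest of these, number 10022, overlaps the single SOX4 peak of *Efna5*, number 2441. The site was assigned to *Efna5* by the nearest start alone.

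The ephrin-B ligands, which span the membrane, had SOX11 peaks at all 3 genes and no SOX4 peak, against the same shares. *Efnb2* had 13 SOX11 peaks, and 44 of all protein-coding genes had as many or more. Number 6380 lies in the promoter it shares with *4921522P10Rik*, number 4226 lies in intron 1, and the other 11 are downstream, at 58.4 to 829 kb from the 5′ end. The earliest of all is number 2588, 173 kb from the 5′ end. *Efnb1* had 3, with number 9583 in its promoter, 960 bp upstream of the start. The peak of *Efnb3*, number 3273, is nearest to the start of *Dnahc2*.

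Among the receptors, 5 of 9 EphA genes had a SOX11 peak, or 55.6%, near the 57.0% of all genes. A SOX4 peak was assigned to 3, or 33.3%, beside 13.0% of all genes. The median length of the EphA genes is 148 kb, but *Epha2* and *Epha8*, which have SOX4 peaks, are 28.1 and 27.4 kb long. Of the EphA genes of 100 kb or more, *Epha4* and *Epha7* had a SOX11 peak, and *Epha3*, *Epha5* and *Epha6* did not. Among these, *Epha4* alone had a SOX4 peak. Of all genes of that length, 74.0% had a SOX11 peak and 22.8% a SOX4 peak. *Epha4*, which binds ephrins of both classes, had 19 SOX11 peaks and 5 SOX4 peaks, the most SOX4 peaks of any guidance gene. Of all protein-coding genes, 7 had at least 19 SOX11 peaks and 6 at least 5 SOX4 peaks. Each of its SOX4 peaks overlaps a SOX11 peak. Of these sites, 2 lie in intron 3, 43.9 and 46.1 kb from the start, and are numbers 1053 and 1830 of the SOX11 list. The other 3 lie downstream of the gene, at 295, 521 and 869 kb from the start, and the farthest is the earliest of all in both lists, number 554 for SOX11 and number 280 for SOX4. In total 16 SOX11 peaks of *Epha4* lie more than 100 kb from its start. Number 6542 lies 1.42 kb upstream, just outside the promoter.

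*Epha2*, a receptor of epithelial cells, had 4 SOX11 peaks. Number 2067, 21.8 kb upstream, overlaps SOX4 peak number 1786, and number 7467 lies in intron 3. The peak of *Epha8*, SOX11 number 5472, overlaps SOX4 number 136 of 2669, but lies past the 3′ end of *Epha8* and is nearest to the start of *C1qa*. The peak of *Epha1*, number 6795, is in the promoter of *Zyx*, and the 2 peaks of *Epha7*, numbers 15211 and 20995, lie 389 and 429 kb upstream.

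The 5 EphB receptors have a median length of 28.6 kb, against 15.5 kb for all genes. Of these receptors, 4 had a SOX11 peak, beside 57.0% of all genes, and *Ephb3* was the one with SOX4 peaks. *Ephb3* had 7 SOX11 peaks. Number 454, 7.79 kb from the 5′ end in intron 1 of the longest transcript and in an exon of another, overlaps SOX4 peak number 493 and holds 3 SOX cores. Number 12819, 48.3 kb upstream, overlaps SOX4 peak number 2156 and holds none. *Ephb6*, which lacks kinase activity, had 2 SOX11 peaks in its promoter, numbers 8557 and 11788, 84 and 940 bp upstream of the start, and a further peak 22.6 kb upstream. *Ephb2* had 3 SOX11 peaks in introns, the earliest number 13306, and *Ephb4* had 1, number 5798, in intron 1.

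**Figure D2:**
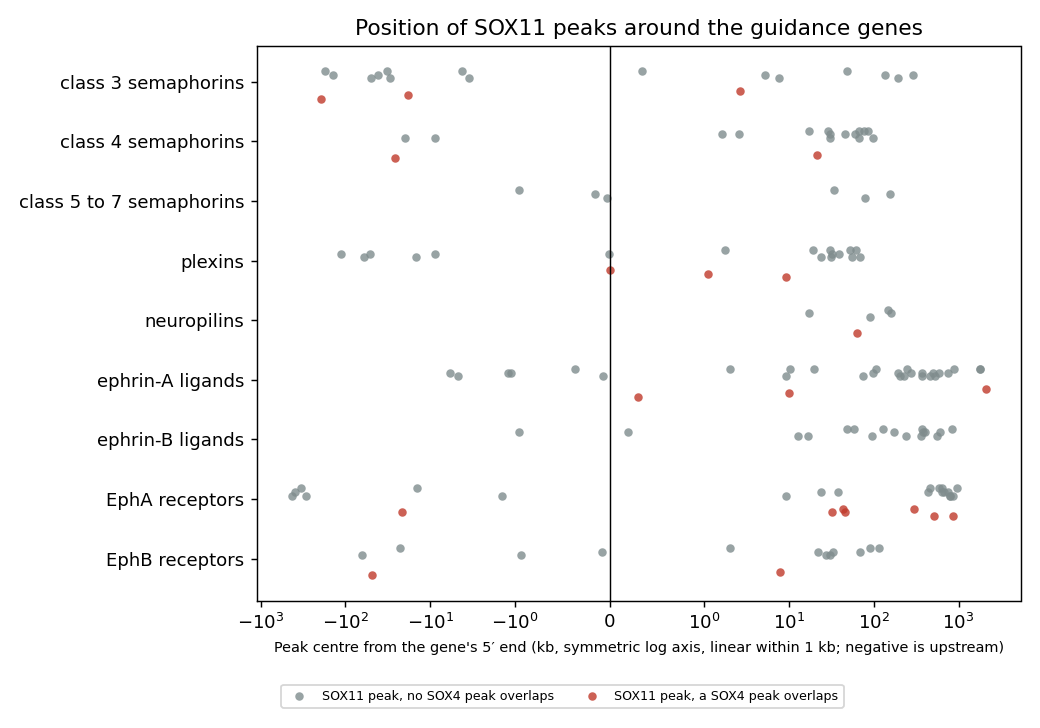
Distance of SOX11 peak centres from the 5′ end of the guidance gene, in kb on a symmetric log axis that is linear within 1 kb, for each family. Red points are SOX11 peaks that overlap a SOX4 peak and grey points the others, and a peak of 2 genes is drawn for each. Peaks of *Efna5*, *Efnb2* and *Epha4* make up most of the points beyond 100 kb on the downstream side.

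Many SOX11 peaks of the guidance genes lay over 100 kb from a transcription start, most of these at 3 genes. Of the 153 SOX11 peaks, 11.8% lay in promoters (Wilson 95% interval 7.57 to 17.8%), 2.61% in exons elsewhere and 32.7% in introns, beside 23.3, 3.33 and 33.4% of all SOX11 peaks. Between genes lay 81 of the 153, or 52.9% (interval 45.1 to 60.7%), beside 8505 of 21270. All intervals here cover counting error over peaks only. Over 100 kb from the nearest start lay 47 peaks, or 30.7% (interval 24.0 to 38.4%), beside 11.7% of the list. *Efna5*, *Epha4* and *Efnb2* account for 37 of these 47, and for 52 of the 153 SOX11 peaks. These 3 genes were chosen after their counts were seen and for having most peaks, so a fall on leaving them out follows in part from the choice. Without them, 10 of 101 peaks lay over 100 kb from a start, or 9.90% (interval 5.47 to 17.3%), 41.6% lay between genes and 14.9% in promoters. Assignment by the nearest start brings such peaks in. With only peaks in the gene body and 10 kb around it, 83 SOX11 peaks and 12 SOX4 peaks remained and 21.7% of the SOX11 peaks lay in promoters. Of the 21 SOX4 peaks, 2 lay in promoters, 1 in another exon, 8 in introns and 10 between genes, beside 21.8, 4.42, 33.9 and 39.9% of all SOX4 peaks. For 11 SOX11 peaks and 2 SOX4 peaks the nearest start was that of a gene outside the families.

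Each of the 21 SOX4 peaks overlapped a SOX11 peak by at least 1 bp, or 100% (interval 84.5 to 100%), beside 94.5% of the whole SOX4 list. Seen from the other list, 21 of 153 SOX11 peaks overlapped a SOX4 peak, or 13.7% (interval 9.16 to 20.1%), beside 11.9% of all SOX11 peaks, which lies in that interval. The shared sites stood early in the SOX11 list. Of the 21 shared sites, 14 were in the first 10% of the list, or 66.7% (interval 45.4 to 82.8%), beside 52.3% of all shared SOX11 peaks. Of the other 132 SOX11 peaks, 6 were there, or 4.55%, beside 4.32%. The median number was 1170 for the shared sites and 11739 for the others, and over the whole list 1972 and 11652. When only the first 50% of the SOX11 list was used, 25.0% of the guidance genes' peaks overlapped a SOX4 peak, beside 21.1% of all peaks in that part of the list.

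**Figure D3:**
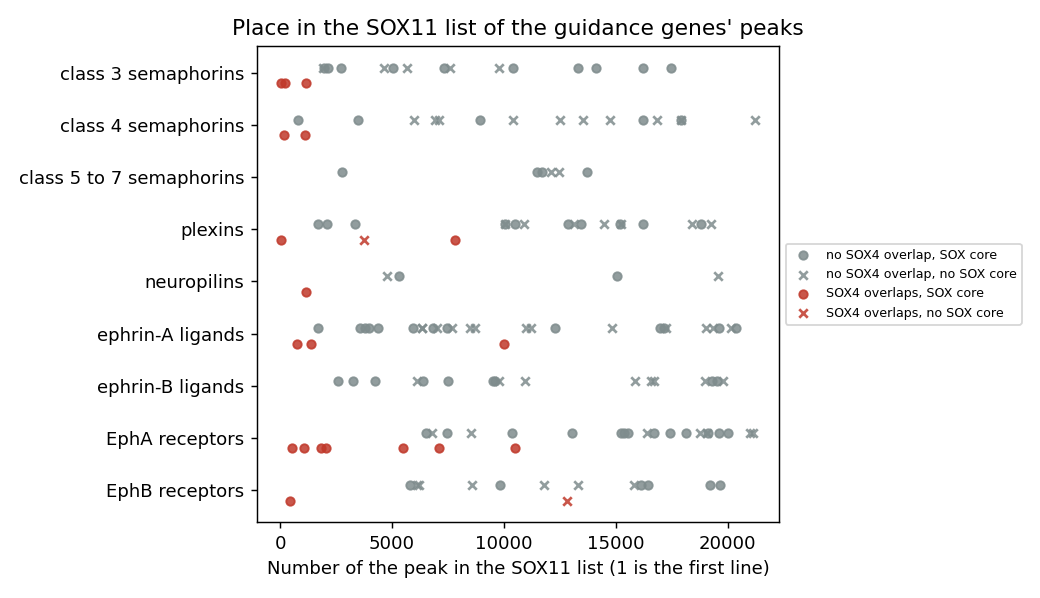
Number in the SOX11 list of each SOX11 peak of the guidance genes, by family, where 1 is the first line of the list. Red marks are peaks that overlap a SOX4 peak and grey marks the others, with a circle where the peak holds a SOX core and a cross where it holds none. Most red marks sit at the left, with a median of 1170 against 11739 for the grey ones, beside 1972 and 11652 over the whole list.

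A SOX core was present in 91 of the 153 SOX11 peaks, or 59.5% (interval 51.6 to 66.9%), beside 58.5% of all SOX11 peaks and 33.3% of stretches of the same width 2 kb from the guidance genes' peaks. In the SOX4 peaks it was present in 19 of 21, or 90.5% (interval 71.1 to 97.3%), beside 80.6% of the SOX4 list and 38.1% of the stretches 2 kb away. The shares of both whole lists lie within these intervals. Within the SOX11 peaks, the shared sites held a core in 90.5% and the others in 54.5% (interval 46.0 to 62.8%), and over the whole list the shares were 83.6 and 55.1%. Of the 31 cores in the SOX4 peaks, 30 were CTTTGT and 1 was CATTGT, or 96.8% CTTTGT, beside 77.9% in the whole SOX4 list and 78.6% in the guidance genes' SOX11 peaks. These 31 cores lie in only 19 peaks, so they are not independent of each other and no interval is given. In SOX4 peaks with a core, the core nearest the centre was at a median of 11 bp from it, and at 19 bp in the whole SOX4 list. The shared peaks without a core were number 3742 of *Plxna1* and number 12819 of *Ephb3*.

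The AP-1 core, TGAGTCA or its reverse complement TGACTCA, was present in 46 of the 153 SOX11 peaks, or 30.1% (interval 23.4 to 37.7%), beside 28.5% of the list and 3.27% of the stretches 2 kb away. In the SOX4 peaks it was present in 5 of 21, or 23.8% (interval 10.6 to 45.1%), beside 26.1% of the list. Both cores were present in 27 SOX11 peaks, or 17.6%, beside 17.2%. Outside promoters the AP-1 core was in 31.9% of the SOX11 peaks (interval 24.6 to 40.1%), beside 35.3% of the list, and in promoters in 3 of 18 (interval 5.84 to 39.2%), beside 6.28%. The core of TEAD factors, GGAATG on either strand, was present in 24.2% of the SOX11 peaks (interval 18.1 to 31.5%), beside 22.8% of the list and 17.6% of the stretches 2 kb away, and in 8 of 21 SOX4 peaks (interval 20.8 to 59.1%), beside 23.3% of the SOX4 list and 7 of 21 stretches 2 kb away. Of the genes with most peaks, *Efna5* had 8 SOX11 peaks with an AP-1 core, *Epha4* 6 and *Efnb2* 5.

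**Figure D4:**
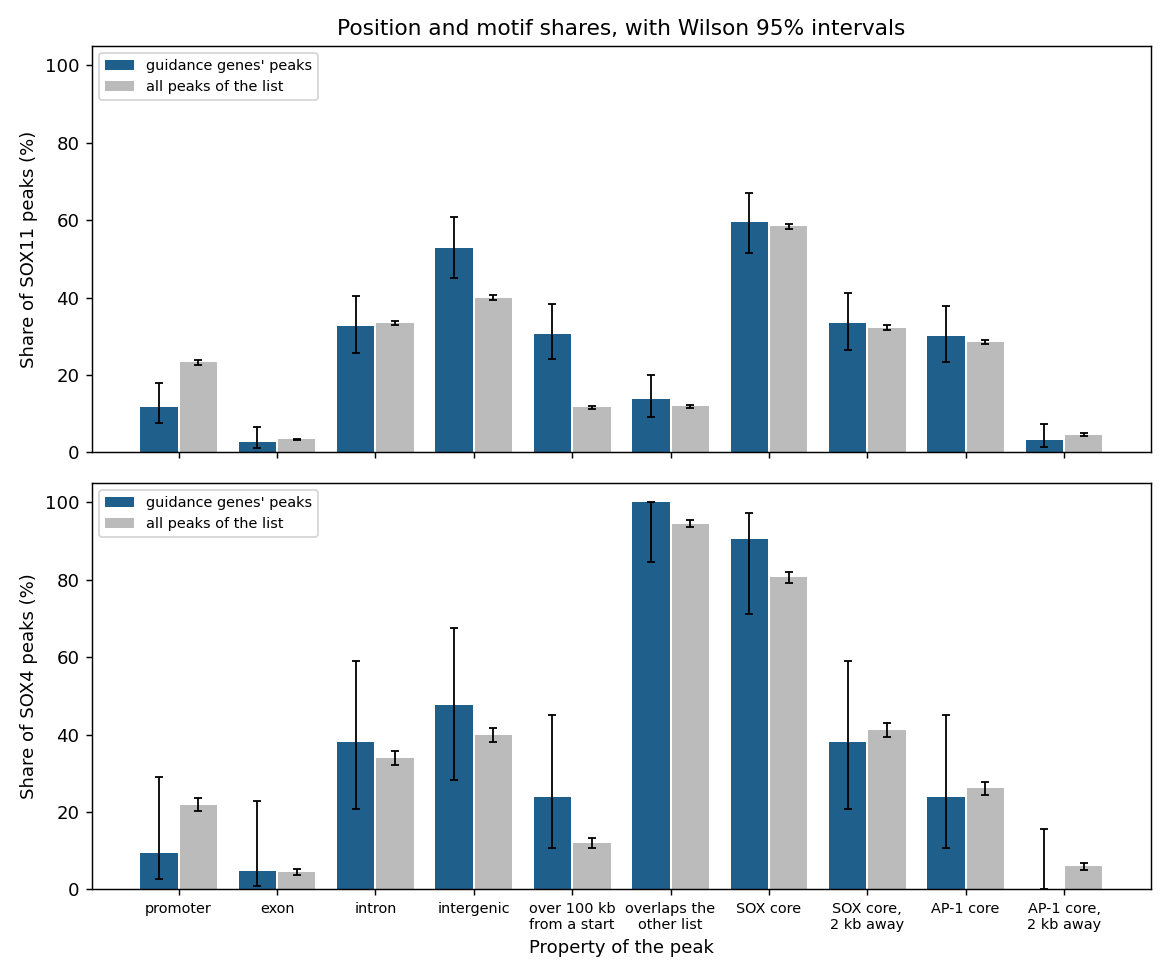
Share of SOX11 peaks (upper panel) and SOX4 peaks (lower panel) with a given position or motif, in percent, for peaks of the guidance genes (blue) and all peaks of the list (grey), with Wilson 95% intervals. The SOX11 share over 100 kb from a start is 30.7% against 11.7% for the list, and 9.90% without *Efna5*, *Epha4* and *Efnb2*. The intervals of the SOX4 peaks are wide, since they rest on 21 peaks.

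Genes of other guidance systems and partners of these receptors were counted in lists chosen with earlier results of these data known. In both lists the share with a SOX11 peak was above the 57.0% of all genes. A list of 22 genes held cues and receptors of the netrin, Slit and RGM systems, and *Flrt1*, *Flrt2* and *Flrt3*. All of the *Flrt* genes had a SOX11 peak. Of the 22 genes, 19 had a SOX11 peak, or 86.4%, and 6 had a SOX4 peak, or 27.3%, beside 13.0% of all genes. By length, the SOX11 count was 5 of 5 under 20 kb, 6 of 6 from 20 to 100 kb and 8 of 11 at 100 kb or more, beside 46.9, 68.9 and 74.0% of all genes of these lengths. The genes under 20 kb include *Robo3* and *Robo4*, which share their single SOX11 peak, number 5492. The SOX4 count was 0 of 5, 3 of 6 and 3 of 11, beside 9.27, 16.2 and 22.8%. Those with a SOX4 peak were *Ntn4*, *Unc5a*, *Unc5b*, *Slit3*, *Robo2* and *Rgma*. The genes with no peak were *Dcc*, *Unc5c* and *Unc5d*. Of 34 partners and effectors of plexins, neuropilins and Eph receptors, 30 had a SOX11 peak, or 88.2%, and 6 had a SOX4 peak, or 17.6%. In the same length classes the SOX11 count was 6 of 6, 7 of 8 and 17 of 20, and the SOX4 count 1 of 6, 0 of 8 and 5 of 20. The 6 with a SOX4 peak were *Mical1* and *Mical3*, enzymes that disassemble actin filaments downstream of plexins, the kinase genes *Fyn* and *Met*, and the exchange factor genes *Vav3* and *Kalrn*. Chosen after their values were seen, *Mical3* had the earliest SOX11 peak among the partners, number 43 of the list, and the earliest peak of *Met*, a receptor that associates with plexin-B proteins, was number 320.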

How the data were processed

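Chromatin of SOX11-FLAG and SOX4-FLAG keratinocytes was sequenced with 2 replicates per factor and 1 control library. The authors aligned reads to mm9 by Bowtie2, dropped duplicates by Picard, called peaks in HOMER's factor style and took out blacklisted regions by bedtools, with no versions stated. Per the labels, the authors made 1 list from both replicates of a factor. The deposited values are peak starts and ends, read as 0-based and printed from 1. Most SOX11 peaks are 258 bp wide and most SOX4 peaks 340 bp. For the peak caller, neither thresholds nor the control library used are given in the sources used here.

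Genes came from GENCODE M1. Entries with the same symbol on the same chromosome were merged, so 54 entries gave 53 guidance genes. Each centre was assigned to a promoter, else an exon, else an intron, else the space between genes. Motifs were exact letters on both strands. Python 3.11.15, numpy 2.4.6, pysam 0.24.0, samtools 1.23.1 and matplotlib 3.10.9 were used, and assignment, overlap and motif search were tested on simulated data. No test was run. The genes described in full are those with a SOX4 peak, with a SOX11 peak in their promoter, or among the 8 with most SOX11 peaks. The other members with a peak are given briefly, and members with no peak are named only. The members and lists were chosen with earlier results of these data known. The sequences of 2 of the chosen sites are not reported here.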

Additional observations from a re-analysis of the deposited data

How the results depend on the processing

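There were 17 results and 56 alternatives, and in 38 the count stayed within 1.5 times its value or the share or density within its 95% interval. With only the gene body and 10 kb around it, there were 83 SOX11 peaks and 12 SOX4 peaks, and 21.7% of the SOX11 peaks lay in promoters. With the gene body alone, which drops both the 10 kb and the nearest start, 24 guidance genes had a SOX11 peak and 8 a SOX4 peak, there were 52 and 10 peaks, and 0.744 SOX11 peaks per 100 kb, beside 1.06 over all genes. With 50 kb around the gene or the nearest start, 22 genes had 33 SOX4 peaks. The shares of all protein-coding genes with the gene body alone, or with 50 kb, are not given here. These counts of guidance genes can therefore not be set against all genes. The gene and 50 kb around it held 1.41 SOX11 peaks per 100 kb, beside 1.45. SOX4 peaks per 100 kb were 0.143 beside 0.140 with the body alone and 0.252 beside 0.183 with 50 kb, against 0.149 beside 0.172 with 10 kb. Counts of genes and peaks follow from the rule of assignment, and for the densities and the promoter share the cause was not tested. Chosen after seeing the data, *Efna5*, *Epha4* and *Efnb2* were left out, and since they have most peaks a fall follows in part from that choice: 9.90% of the other SOX11 peaks lay over 100 kb from a start, 54.5% over 10 kb and 41.6% between genes, beside 11.7% and 52.1% of the list for the distances. The first 50% of the SOX11 list held 80 of the peaks, of which 25.0% overlapped a SOX4 peak, since 20 of the 21 shared sites were in it, beside 21.1% of all peaks there. With the longer core CTTTGTT or CATTGTT, the share was 30.1% of SOX11 peaks and 57.1% of SOX4 peaks, beside 26.6% and 48.8% of the lists. No paired analysis was possible because the replicates were merged into 1 list for each factor and no result comes from a test. No replicate could be left out for the same reason. The depth of the libraries is unknown, so a gene without a peak is not shown to lack a site.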
